A study of Mus musculus with 50 samples.

Results

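The livers described here are the 16 with the highest and the 16 with the lowest Saa1 among 50 liver transcriptomes of a mouse backcross. They were chosen by Saa1 itself: the libraries were ranked by its expression, and the 18 livers between the groups belong to neither. The study mapped loci, and pairs of loci, that regulate blood and metabolic traits and hepatic gene expression. All mice were males of a cross in which A/J segments of chromosomes 4 and 6 segregated on a C57BL/6J background. Each mouse carried a single recombinant copy of both chromosomes by the methods. The paper measured traits in mice of both sexes, and its text gives no sex for the sequenced livers. The methods describe N2 offspring a few weeks old, fasted overnight and bled from the retro-orbital sinus under isoflurane before the caudate lobe was taken, while the labels call them adult F2 mice. No treatment was given in the labels, and genotypes were not used here, so the groups differ by rule only in Saa1. Expression is given as normalized CPM, the reads of a gene relative to the counted reads of its library after scaling between libraries by the authors. Counted reads ran from 12643675 to 27145400 in the high-Saa1 livers and from 11965594 to 29976557 in the low-Saa1 livers.

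Serum amyloid A, encoded by Saa1 and Saa2, is an acute-phase protein that hepatocytes secrete in quantity when interleukin-6 and interleukin-1 signal infection or injury. Other plasma proteins rise with it, among them orosomucoids (Orm genes), haptoglobin (Hp) and lipocalin-2 (Lcn2), while negative acute-phase proteins such as albumin decline. The transcription factors C/EBP-beta, STAT3 and NF-kB act on many of these genes.

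Saa1 ran from 13.95 to 31.1 normalized CPM in the low-Saa1 livers, with a median of 23.4, and from 54.7 to 660.5 in the high-Saa1 livers, with a median of 68.0. These values chose the groups and carry no test. The last liver inside the low group had 31.1 and the first outside it 31.2, and the first inside the high group had 54.7 against 54.1 for the last outside, so the thresholds fell in a continuous range. Within the high group 3 libraries stood apart, with Saa1 at 247.6 in library 44, 457 in library 16 and 660.5 in library 47, while the next had 122.

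**Figure D1:**
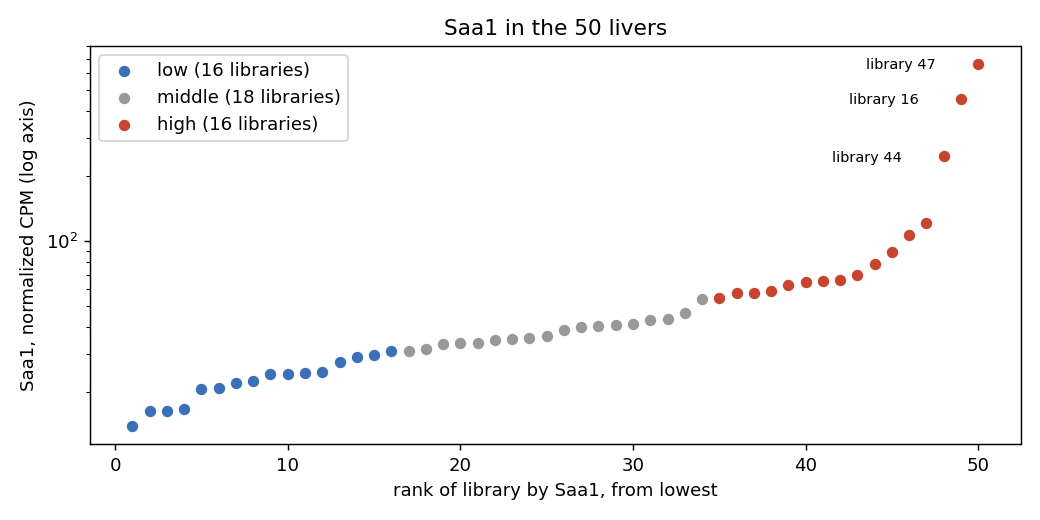
Saa1 in each of the 50 libraries, in normalized CPM on a log axis, against the rank of the library. Colours mark the 16 lowest, the 18 between and the 16 highest, and libraries 44, 16 and 47 lie above the rest at 247.6, 457 and 660.5.

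The promoters of the 4 marker genes are shown because Saa1 and Saa2 moved together across the livers while Orm2 and Lcn2 did so in few of them. Each is a window of 300 bases that ends shortly after the start of the gene (RefSeq, GRCm38.p6, 5′ to 3′ on the strand of the gene). Capitals mark matches on either strand to TTGCNNAA, a C/EBP-type motif. It was found once in each of the 4 windows and in 10.8% of 32851 promoters of this length.
Saa1, chr7:46742931-46743230, minus strand: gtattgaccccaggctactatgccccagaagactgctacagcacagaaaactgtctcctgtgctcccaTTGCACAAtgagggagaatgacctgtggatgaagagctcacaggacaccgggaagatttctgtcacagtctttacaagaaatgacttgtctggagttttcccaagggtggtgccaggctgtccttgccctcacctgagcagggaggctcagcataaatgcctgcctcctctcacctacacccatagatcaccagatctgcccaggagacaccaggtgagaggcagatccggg
Saa2, chr7:46751583-46751882, plus strand: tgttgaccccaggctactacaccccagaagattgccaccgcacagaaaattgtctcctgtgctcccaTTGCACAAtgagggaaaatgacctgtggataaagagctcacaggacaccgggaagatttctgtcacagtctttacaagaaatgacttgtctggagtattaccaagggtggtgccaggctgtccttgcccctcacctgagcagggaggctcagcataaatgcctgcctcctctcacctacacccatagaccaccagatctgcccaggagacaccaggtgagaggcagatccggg
Orm2, chr4:63362199-63362498, plus strand: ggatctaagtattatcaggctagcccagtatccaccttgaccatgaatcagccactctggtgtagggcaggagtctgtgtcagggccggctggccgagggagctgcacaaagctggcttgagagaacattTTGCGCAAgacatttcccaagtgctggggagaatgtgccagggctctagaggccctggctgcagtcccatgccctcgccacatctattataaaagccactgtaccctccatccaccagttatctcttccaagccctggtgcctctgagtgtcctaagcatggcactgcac
Lcn2, chr2:32387690-32387989, minus strand: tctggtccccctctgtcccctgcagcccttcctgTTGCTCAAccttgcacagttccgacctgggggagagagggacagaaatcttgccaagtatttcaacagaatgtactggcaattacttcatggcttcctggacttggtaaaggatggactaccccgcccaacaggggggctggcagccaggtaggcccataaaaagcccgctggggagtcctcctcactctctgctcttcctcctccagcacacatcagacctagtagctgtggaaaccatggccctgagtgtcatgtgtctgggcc

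The Saa1 and Saa2 windows hold the same letters at the match, TTGCACAA. They are alike over most of their length, so their matches are not independent. Since all 4 windows hold the C/EBP-type motif, it does not separate Saa1 and Saa2 from Orm2 and Lcn2. TTCNNNGAA, a STAT-type motif, and the NF-kB consensus were also searched on both strands and were in 0 of these 4 windows, while 8.30% and 5.80% of all promoters held them. A match describes letters only, and no match says nothing of the factor.

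The groups also differed in a label that the ranking did not use. Animal number averaged 189.6 in the high-Saa1 livers and 233 in the low-Saa1 livers (permutation test, 2-sided, p = 0.0138, adjusted p = 0.0413 over 3 labels). Libraries numbered 1 to 30 made up 5 of 16 high and 11 of 16 low livers (Fisher exact test, 2-sided, adjusted p = 0.113). Counted reads gave an adjusted p of 0.932 by the permutation test. What the numbers stand for is not given in the sources used here. Library 22 of the low group and library 55 of the high group carry the same animal number, and so do libraries 8 and 10, both between the groups. The methods count fewer livers than there are libraries here, without saying which, and libraries with the same number may come from 1 mouse, which could then stand in both groups. Library 24 of the low group held 193 normalized CPM of Cyp2b9, a cytochrome P450 typical of female liver, against a median of 4.70 in its group.

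Of 11435 genes tested with limma, 180 (1.57%) differed between the groups at an adjusted p under 0.05, 66 (0.577%) lower and the other 0.997% higher in the high-Saa1 livers. At an unadjusted p under 0.05 there were 1930 genes (16.9%). Some complement, male-biased and Saa genes were among those higher, and some female-biased and globin genes among those lower. Differences are high minus low on the log2(normalized CPM + 0.5) scale, n = 16 a group, and adjusted p-values are from limma. The split depended on scaling: plain CPM gave 81 genes higher and 298 lower, and quantile normalization 99 and 99. By edgeR on whole reads, which differs in tool and model too, 95 were higher and 99 lower.

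Most calls were lost when animal number or the library set entered the fit, while with counted reads as covariate 161 of the 180 were called again. With animal number as a covariate 0 genes were higher and 0 lower by limma, with 916 at an unadjusted p under 0.05 against 1930 without it. No other tool was run with a covariate. With the library set (1 to 30 or 31 to 59) as covariate only Hc and Tiam2 passed, both higher (adjusted p = 0.0383 each), with 1432 genes at an unadjusted p under 0.05. All 180 genes kept their sign in these 3 fits and within each library set. These fits reuse the libraries in which the genes were called, so the signs and the medians that follow are not independent support. The median difference of the genes called higher was 0.41, and 0.37 with the library set and 0.33 with animal number, and that of the genes called lower -0.43, -0.40 and -0.34. Among the members of the gene lists 0 passed with animal number and only Hc with the library set. Without library 24 57 genes were higher and 31 lower, and without the libraries that share an animal number 51 and 43. Without libraries 16, 44 and 47, a step chosen after seeing the data, 1.71% of genes were higher and 1.17% lower. Groups of 12 gave 0.0700% higher and 0.0350% lower, and groups of 25 0.411% and 0.297%. Saa1 and animal number cannot be fully told apart in these livers, and each difference given here carries that limit.

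Saa2 followed Saa1. It was 6.56 to 193.5 (median 11.8) in the high-Saa1 livers and 3.48 to 8.59 (median 5.25) in the low-Saa1 livers, and 14 of the 16 high livers lay above every low liver. The difference was 1.52 ± 0.32 (SE, adjusted p = 0.0205), and 1.44 among libraries 1 to 30 and 1.56 among libraries 31 to 59. Its size depended on the libraries that stood apart and on the tool: it was 1.00 (adjusted p = 0.000809) without libraries 16, 44 and 47 and 2.43 by edgeR (log2 fold, adjusted p = 0.00494), and with animal number as covariate 1.65 (adjusted p = 0.108). It is not independent of the ranking, since 44.4% of the 31-base stretches of Saa2 transcripts also occur in Saa1, and reads may have been shared between them. Over the 50 livers the log2 values of the pair had r = 0.91 and rho = 0.82, and r = 0.80 without libraries 16, 44 and 47. Within libraries 1 to 30 r was 0.90, and within libraries 31 to 59 it was 0.91.

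Saa4, the constitutive member of the family, which is carried on high-density lipoprotein, was also higher. Its values were 171 to 321 (median 259) in the high-Saa1 livers and 76.9 to 276.2 (median 157) in the low-Saa1 livers. The groups overlapped, with 5 of 16 high livers above every low one. The difference was 0.64 ± 0.13 (SE, adjusted p = 0.0205), 0.59 among libraries 1 to 30 and 0.54 among libraries 31 to 59, and 0.52 (adjusted p = 0.33) with animal number as covariate. Saa3 was 2.53 to 8.22 (median 5.09) in the high-Saa1 livers and 1.88 to 5.04 (median 3.81) in the low-Saa1 livers. Its difference of 0.44 ± 0.12 (SE, adjusted p = 0.0576) did not pass.

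The other markers, Orm2 and Lcn2, did not pass between the groups. Orm2, an orosomucoid, was 5.11 to 70.02 (median 9.23) in the high-Saa1 livers and 3.64 to 14.1 (median 6.84) in the low-Saa1 livers, a difference of 0.54 ± 0.26 (SE, adjusted p = 0.282). Lcn2, which binds bacterial siderophores, was 4.26 to 52.5 (median 10.7) in the high-Saa1 livers and 3.77 to 23.3 (median 11.02) in the low-Saa1 livers, a difference of 0.26 ± 0.32 (SE, adjusted p = 0.719). Both overlapped widely between the groups, and a p that misses the threshold does not show that they were equal. With a slope on log2 Saa1 over the 50 livers in place of groups Orm2 passed (0.46 per log2 unit of Saa1, adjusted p = 3.88e-05), and without libraries 16, 44 and 47, an alternative chosen after seeing the data, it did not (0.12, adjusted p = 0.499). Orm2 was high in libraries 16 and 47, at 49.9 and 70.02, while library 44, at 18.9, lay close to the highest of the other 47 livers, at 18.5. Without those 3 libraries the difference of Orm2 was 0.13 (adjusted p = 0.66) and that of Lcn2 -0.074 (adjusted p = 0.91). Lcn2 reached 52.5 in library 44, 30.7 in library 16 and 24.7 in library 47, and up to 36.4 elsewhere. Within libraries 1 to 30 and 31 to 59 the differences were 0.25 and 0.93 for Orm2 and -0.19 and 0.88 for Lcn2.

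Orm1 was highest in all 3 livers that stood apart in Saa1, at 774 in library 44, 714 in library 16 and 881 in library 47 against at most 516 in the others. The differences of Orm1, 0.49 ± 0.15 (SE, adjusted p = 0.0788), and Orm3, 0.38 ± 0.28 (SE, adjusted p = 0.512), did not pass. The slope on Saa1 over the 50 livers passed for Orm1 (0.24, adjusted p = 0.000604) and without those 3 libraries did not (0.17, adjusted p = 0.137). Markers of Kupffer cells and macrophages, summed, were 631, 660.3 and 734 normalized CPM in libraries 44, 16 and 47, at most 567 in the other high livers and up to 664 in the middle livers, and their part in these values was not tested. Orm1 and Orm2 share 27.5% of the 31-base stretches of Orm2, so reads may have been split between them. Haptoglobin, which binds free hemoglobin, was 2421 to 6084 (median 3692) in the high-Saa1 livers and 2901 to 4582 (median 3682) in the low-Saa1 livers. Its difference was -0.042 ± 0.095 (SE, adjusted p = 0.858), and -0.21 among libraries 1 to 30 and 0.12 among libraries 31 to 59. Library 44, at 6084, was the only high liver above every low liver in Hp.

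**Figure D2:**
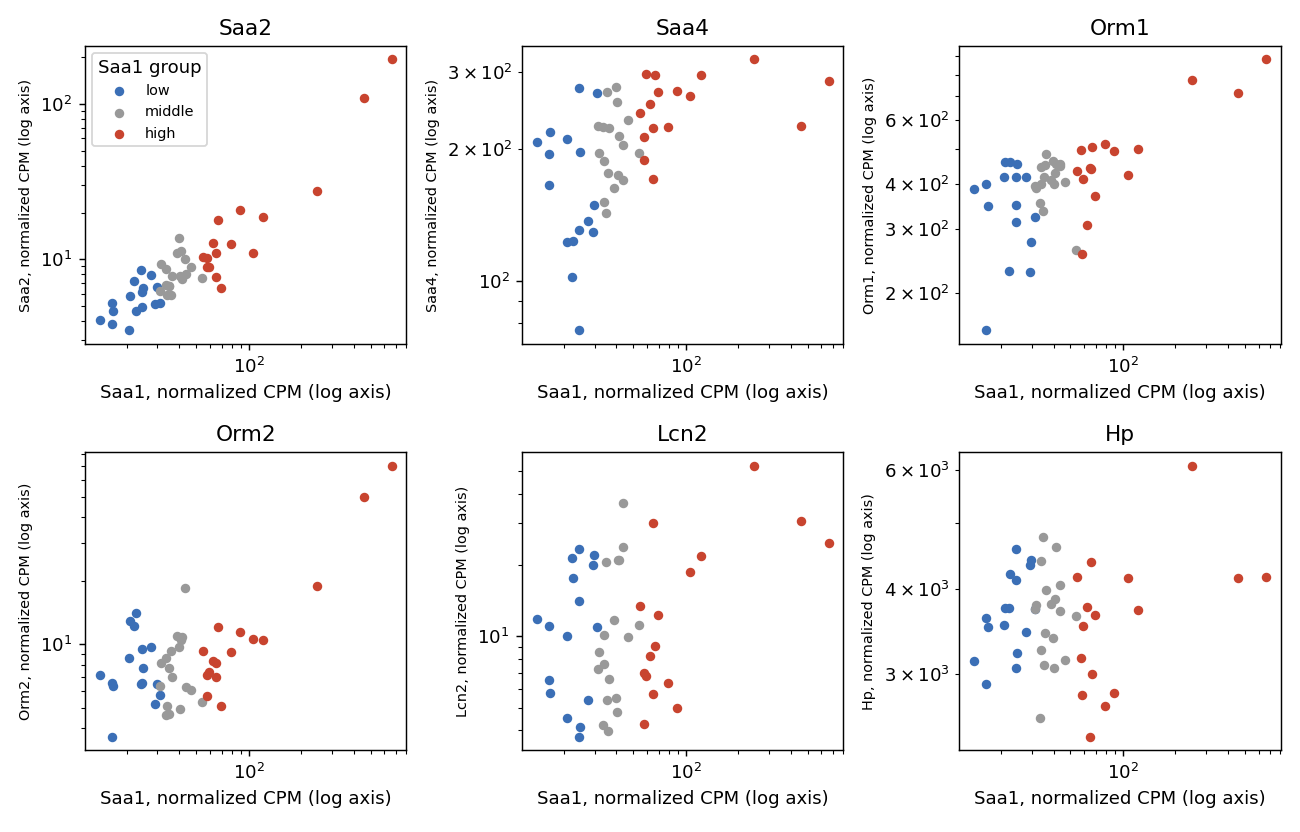
Saa2, Saa4, Orm1, Orm2, Lcn2 and Hp against Saa1 in 50 livers, all in normalized CPM on log axes, with 1 point a library. Saa2 rises along the range of Saa1, whereas Orm1 stands high in libraries 44, 16 and 47, Orm2 stands high in libraries 16 and 47, and Hp overlaps between the groups.

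Most of the acute-phase list did not pass between the groups, so they are called by their rule and not as livers with and without an acute-phase response. Of 32 acute-phase genes tested of 33 listed, 2 passed as higher, Saa2 and Saa4, and 0 as lower, against 0.997% higher and 0.577% lower of all genes, while 12 had an unadjusted p under 0.05, against 16.9% of all genes. The list's median difference was 0.12, against -0.00023 over all genes tested, and its members ran from -0.31 to 1.52. The list's median fell to 0.022 without libraries 16, 44 and 47, an alternative chosen after seeing the data. The median was -0.070 among libraries 1 to 30 and 0.18 among libraries 31 to 59. Of 36 genes of IL-6, IL-1 and NF-kB signalling tested of 39 listed, 0 passed in either direction by limma and 0 by edgeR. The limma count is near the 1.57% of all genes called. Of the 36, 9 had an unadjusted p under 0.05 in limma, against 16.9% of all genes (median 0.057). Without libraries 16, 44 and 47 1 of them passed as higher, Il1rap, a subunit of the interleukin-1 receptor (0.18, adjusted p = 0.0377), named after its value was seen.

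Of 17 negative acute-phase proteins 1 was higher and 1 lower, against 0.997% higher and 0.577% lower of all genes, and 4 had an unadjusted p under 0.05, against 16.9% (median -0.0070). Igfals, which holds insulin-like growth factors in the circulation, was 39.7 to 77.0 (median 59.3) in the high-Saa1 livers and 22.6 to 59.6 (median 39.0) in the low-Saa1 livers, a difference of 0.48 ± 0.11 (SE, adjusted p = 0.0266). Ahsg, fetuin-A, was 7774 to 11921 (median 9295) against 8964 to 13581 (median 11037), a difference of -0.24 ± 0.064 (SE, adjusted p = 0.0401). The groups overlapped in both, with 8 of 16 high livers above every low liver in Igfals and 7 of 16 below every low liver in Ahsg. Within libraries 1 to 30 and 31 to 59 the differences were 0.49 and 0.27 for Igfals and -0.30 and -0.14 for Ahsg. Ahsg did not pass without library 24 or without the libraries that share an animal number (adjusted p = 0.0734 and 0.0639), which left 0 members lower, while plain CPM gave 2. With groups of 25 0 were higher and 0 lower.

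Part of the complement list was higher in the high-Saa1 livers. Of 42 complement and coagulation genes tested of 43 listed, 11 were higher and 0 lower, against 0.997% higher and 0.577% lower of all genes, and 25 had an unadjusted p under 0.05, against 16.9%. The list's median was 0.13. Among the called genes were the classical pathway members C1ra, C1s1, C2 and C4b, the terminal components Hc, C6, C8a, C8b and C9, which assemble into the membrane attack complex, and the clotting factor F11. C1ra, C1s1, C2, C8b and F11 are named after their values were seen, and 59.3%, 33.5% and 40.8% of the 31-base stretches of C1ra, C1s1 and C2 occur in other genes, so their counts are uncertain. C8a and C8b lie on chromosome 4 and C1ra and C1s1 on chromosome 6, which segregated A/J alleles. The median was 0.10 among libraries 1 to 30 and 0.11 among libraries 31 to 59. With animal number as covariate 0 members passed (median 0.12) and with the library set 1, Hc. Groups of 12 and 25 gave 3 and 7 higher.

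Hc, complement component C5, was 459 to 880.1 (median 633) in the high-Saa1 livers and 342 to 569 (median 431) in the low-Saa1 livers. In 12 of 16 high livers it lay above every low liver. The difference was 0.48 ± 0.077 (SE, adjusted p = 0.00192), and 0.53 among libraries 1 to 30 and 0.36 among libraries 31 to 59. With animal number as covariate it was 0.38 (adjusted p = 0.0979), which with that of Tiam2 was the smallest adjusted p of that fit.

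C9, which polymerizes into the pore of the complex, was 346 to 708 (median 549) against 113 to 549 (median 295), a difference of 0.81 ± 0.15 (SE, adjusted p = 0.00747). C6 was 47.7 to 194.1 (median 134) against 18.7 to 149 (median 45.9), a difference of 1.11 ± 0.22 (SE, adjusted p = 0.0115). C8a was 317 to 523 (median 451) against 186.3 to 476 (median 302), a difference of 0.44 ± 0.094 (SE, adjusted p = 0.0228). In C9, C6 and C8a 8, 7 and 6 of 16 high livers lay above every low liver, so the groups overlapped. Within libraries 1 to 30 and 31 to 59 the differences were 0.91 and 0.57 for C9, 1.30 and 0.73 for C6 and 0.57 and 0.24 for C8a, and with animal number as covariate C8a differed by 0.27 (adjusted p = 0.356). C4b, a source of the C4 fragments that build the C3 convertase, was 837 to 1397 (median 1097) against 677 to 969 (median 854), with 13 of 16 high livers above every low liver. Its difference was 0.37 ± 0.066 (SE, adjusted p = 0.00565), 0.26 among libraries 1 to 30 and 0.37 among libraries 31 to 59, and 48.3% of its 31-base stretches also occur in C4a, so its count is uncertain.

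**Figure D3:**
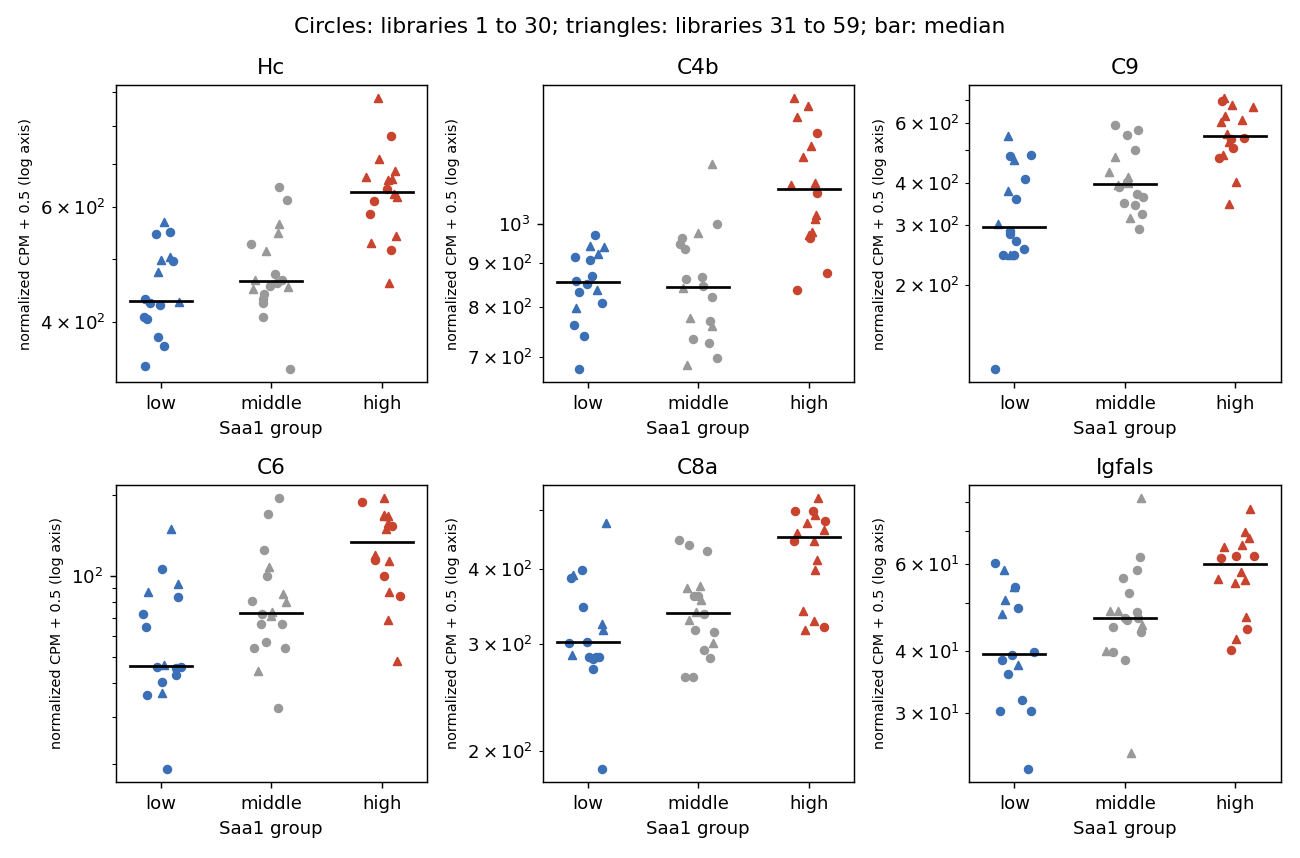
Hc, C4b, C9, C6, C8a and Igfals in each liver by Saa1 group, in normalized CPM + 0.5 on a log axis, with circles for libraries 1 to 30, triangles for libraries 31 to 59 and bars for medians. Medians of Hc are 431 in the low-Saa1, 462 in the middle and 633 in the high-Saa1 livers.

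Some genes with sex-biased expression in mouse liver differed among these males, male-biased genes upward and female-biased genes downward. Pulsatile growth hormone, acting through STAT5B, is known to keep the male pattern in mouse liver. Of 21 male-biased genes tested of 22 listed, 11 were higher and 0 lower, against 0.997% higher and 0.577% lower of all genes, and 20 had an unadjusted p under 0.05, against 16.9%. Their median was 0.80, with 21 of 21 above 0, against 49.9% of all genes. Of 14 female-biased genes tested of 22 listed, 0 were higher and 3 lower, against the same shares, and 7 had an unadjusted p under 0.05 (median -0.44). Medians within libraries 1 to 30 and 31 to 59 were 0.82 and 0.66 for the male-biased and -0.42 and -0.45 for the female-biased list. C6 and C8a are in both the complement and the male-biased list. With animal number as covariate 0 male-biased genes passed (median 0.69). Without library 24 7 male-biased genes were higher and 1 female-biased gene lower, and without the libraries that share an animal number 5 and 0. Groups of 25 gave 4 and 0, groups of 12 0 and 0, and plain CPM 13 and 5.

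Hsd3b5, a steroid dehydrogenase of male liver, was 2.69 to 46.4 (median 14.99) in the high-Saa1 livers and 0.459 to 17.7 (median 3.88) in the low-Saa1 livers. The difference was 1.77 ± 0.35 (SE, adjusted p = 0.0122), and 2.34 among libraries 1 to 30 and 0.92 among libraries 31 to 59. Ugt2b1, a glucuronosyltransferase, was 283.2 to 681 (median 447) in the high-Saa1 livers and 119 to 557 (median 275.9) in the low-Saa1 livers, a difference of 0.70 ± 0.16 (SE, adjusted p = 0.0228), and 0.80 among libraries 1 to 30 and 0.39 among libraries 31 to 59. The groups overlapped, with 6 of 16 high livers above every low liver in Hsd3b5 and 4 in Ugt2b1. Without the libraries that share an animal number Ugt2b1 did not pass (adjusted p = 0.0542). Libraries 44, 16 and 47, the highest in Saa1, held 8.35, 15.2 and 6.57 of Hsd3b5 and were not the highest in it. Mup7, Mup20, Mup21, Cyp4a12b, Cyp7b1, Serpina1e and Keg1 also passed and are named after their values were seen. Of their 31-base stretches 90.0% for Mup7, 64.5% for Mup20, 62.9% for Cyp4a12b, 54.2% for Serpina1e, 34.1% for Hsd3b5 and 33.8% for Mup21 occur in other genes, so these counts are uncertain. The Mup genes and Cyp4a12b lie on chromosome 4.

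On the female-biased side, Cyp17a1, of steroid synthesis, was among the lower genes, at 9.11 to 81.1 (median 27.5) in the high-Saa1 livers and 16.3 to 246 (median 65.1) in the low-Saa1 livers, a difference of -1.35 ± 0.35 (SE, adjusted p = 0.0377). Cyp2a4, a steroid hydroxylase, was lower as well, at 0.627 to 19.98 (median 2.30) against 1.92 to 77.2 (median 9.89), a difference of -1.84 ± 0.50 (SE, adjusted p = 0.0468). The groups overlapped in both, with 6 and 7 of 16 high livers below every low liver. Within libraries 1 to 30 and 31 to 59 the differences were -1.65 and -0.64 for Cyp17a1 and -1.13 and -2.27 for Cyp2a4. Without library 24 and without libraries sharing an animal number, adjusted p-values were 0.0701 and 0.0608 for Cyp17a1 and 0.0871 and 0.107 for Cyp2a4, and without libraries 16, 44 and 47 the adjusted p was 0.0552 for Cyp2a4. With animal number as covariate Cyp17a1 differed by -0.85 (adjusted p = 0.486). Cyp2a4 shares 55.9% of its 31-base stretches with Cyp2a5.

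**Figure D4:**
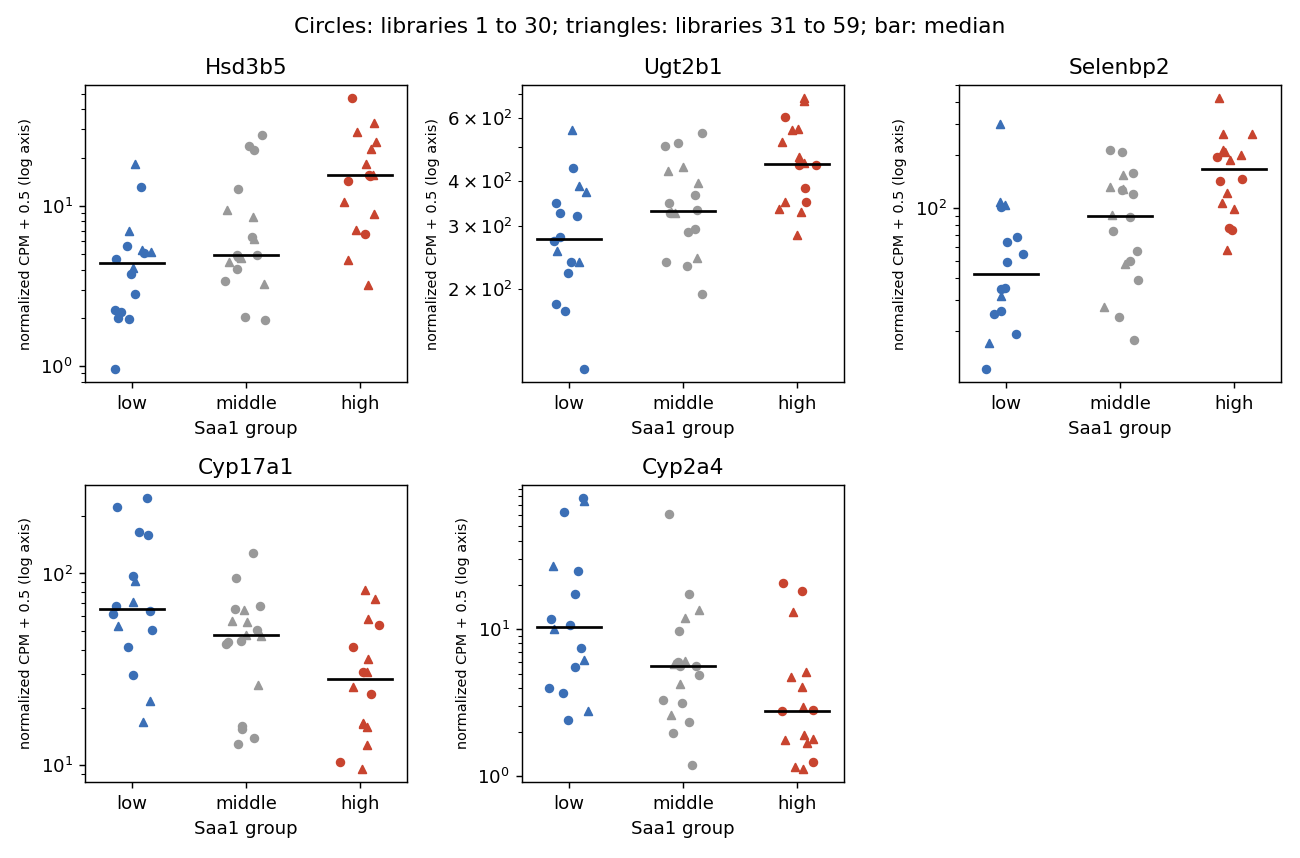
Male-biased Hsd3b5 and Ugt2b1, Selenbp2, and female-biased Cyp17a1 and Cyp2a4 in each liver by Saa1 group, in normalized CPM + 0.5 on a log axis, with circles for libraries 1 to 30, triangles for libraries 31 to 59 and bars for medians. Medians of Hsd3b5 are 3.88 in the low-Saa1, 4.42 in the middle and 14.99 in the high-Saa1 livers.

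Among 36 xenobiotic P450 enzymes and their regulators tested of 41 listed, 4 were higher and 2 lower, against 0.997% higher and 0.577% lower of all genes, and 19 had an unadjusted p under 0.05, against 16.9% (median 0.080). Cyp2a4, counted here as lower, is also in the female-biased list. Cyp2j5, which makes epoxides of arachidonic acid, was 313 to 452 (median 399.6) in the high-Saa1 livers and 247 to 387 (median 309) in the low-Saa1 livers, a difference of 0.34 ± 0.058 (SE, adjusted p = 0.0041). Cyp1a2, which metabolizes caffeine and aromatic amines, was 141 to 281 (median 217.1) against 63.5 to 241 (median 153), a difference of 0.58 ± 0.15 (SE, adjusted p = 0.0389). Cyp2a22 was 0.724 to 9.28 (median 3.0003) against 1.31 to 46.7 (median 9.25), a difference of -1.46 ± 0.35 (SE, adjusted p = 0.0274). In Cyp2j5 10 and in Cyp1a2 3 of 16 high livers lay above every low liver, and in Cyp2a22 4 lay below. Within libraries 1 to 30 and 31 to 59 the differences were 0.34 and 0.25 for Cyp2j5, 0.40 and 0.57 for Cyp1a2 and -1.07 and -1.14 for Cyp2a22. Members of the family thus differed in both directions, and which direction held more depended on the tool and the scaling: edgeR on whole reads gave 1 higher and 3 lower, and plain CPM 3 and 3. Without library 24, and likewise without the libraries that share an animal number, 1 was higher and 1 lower, and without libraries 16, 44 and 47 2 and 1. In those 3 fits the adjusted p of Cyp1a2 was 0.0711, 0.142 and 0.0513, and by edgeR 0.0592. Groups of 25 gave 1 and 1. Cyp2j5 lies on chromosome 4. Of the 31-base stretches of Cyp2a22 34.6% occur in Cyp2a12.

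Of 43 interferon-stimulated genes tested of 46 listed, 3 were higher and 0 lower, against 0.997% higher and 0.577% lower of all genes, and 13 had an unadjusted p under 0.05, against 16.9% (median 0.13). Irgm1, an immunity-related GTPase, was 37.1 to 62.2 (median 43.5) in the high-Saa1 livers and 25.9 to 42.3 (median 35.2) in the low-Saa1 livers, a difference of 0.31 ± 0.064 (SE, adjusted p = 0.0205). Iigp1, of the same GTPase family, was 157 to 265 (median 212) against 79.5 to 217.1 (median 159), a difference of 0.43 ± 0.10 (SE, adjusted p = 0.0274). Irf7, a transcription factor of the interferon response, was 15.6 to 36.996 (median 28.1) against 14.3 to 28.3 (median 20.7), a difference of 0.40 ± 0.11 (SE, adjusted p = 0.0422). The groups overlapped, with 9, 7 and 8 of 16 high livers above every low liver. The count was 6 without libraries 16, 44 and 47, 2 without library 24, 1 without the libraries that share an animal number, 1 with plain CPM and 0 with groups of 25. Irf7 did not pass without library 24 (adjusted p = 0.0692), and neither Irf7 nor Irgm1 did without the libraries that share an animal number (adjusted p = 0.0928 and 0.0742) or with plain CPM (0.063 and 0.0536). With animal number as covariate Irf7 differed by 0.25 (adjusted p = 0.506). The list's median was 0.29 among libraries 1 to 30 and 0.11 among libraries 31 to 59.

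Metabolic and proliferation lists gave few calls. Of 35 fatty acid oxidation and PPAR-alpha genes 0 were higher and 1 lower, a count near the share of all genes (1.57%), while 12 had an unadjusted p under 0.05, against 16.9% (median -0.12). Without library 24 0 were lower, without the libraries that share an animal number 2, with plain CPM 4 and with quantile normalization 4. The called gene was the thioesterase Acot2, at 3.04 to 7.64 (median 4.33) in the high-Saa1 livers and 3.02 to 17.4 (median 7.09) in the low-Saa1 livers, a difference of -0.60 ± 0.15 (SE, adjusted p = 0.0369), with 37.3% of its 31-base stretches in other genes. Without library 24 it did not pass (adjusted p = 0.0701). Of 13 cell cycle genes tested of 32 listed, 0 were higher and 1 lower, against 0.997% higher and 0.577% lower of all genes. Of the 13, 4 had an unadjusted p under 0.05, against 16.9% (median -0.17), and 1 call does not describe the list. Mcm2, of the replicative helicase, lay close to the threshold. It was 0.643 to 1.88 (median 1.09) against 1.04 to 2.99 (median 1.51), a difference of -0.44 ± 0.12 (SE, adjusted p = 0.05). Mcm2 did not pass without library 24 or without the libraries that share an animal number (adjusted p = 0.0916 and 0.0552). Nor did it pass with a pseudocount of 1, quantile normalization, counted reads as covariate or no filter on low values. With no filter 1 member of the cell cycle list was called lower. In 7 further lists 0 members passed by limma, against 1.57% of all genes. Medians were 0.032 for 23 of 23 listed iron handling genes, -0.0058 for 34 of 36 of sterol and fatty acid synthesis, -0.013 for 24 of 24 of the glucocorticoid and fasting response, and 0.10 for 43 of 43 of the secretory pathway and unfolded protein response. For 13 of 16 immediate-early, 19 of 20 circadian and 12 of 13 mitochondrially encoded genes they were -0.17, 0.15 and 0.085. In the order given, 6, 7, 7, 9, 1, 3 and 0 members of these lists had an unadjusted p under 0.05 in limma, against 16.9% of all genes, and edgeR called 0, 0, 0, 0, 0, 0 and 0.

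**Figure D5:**
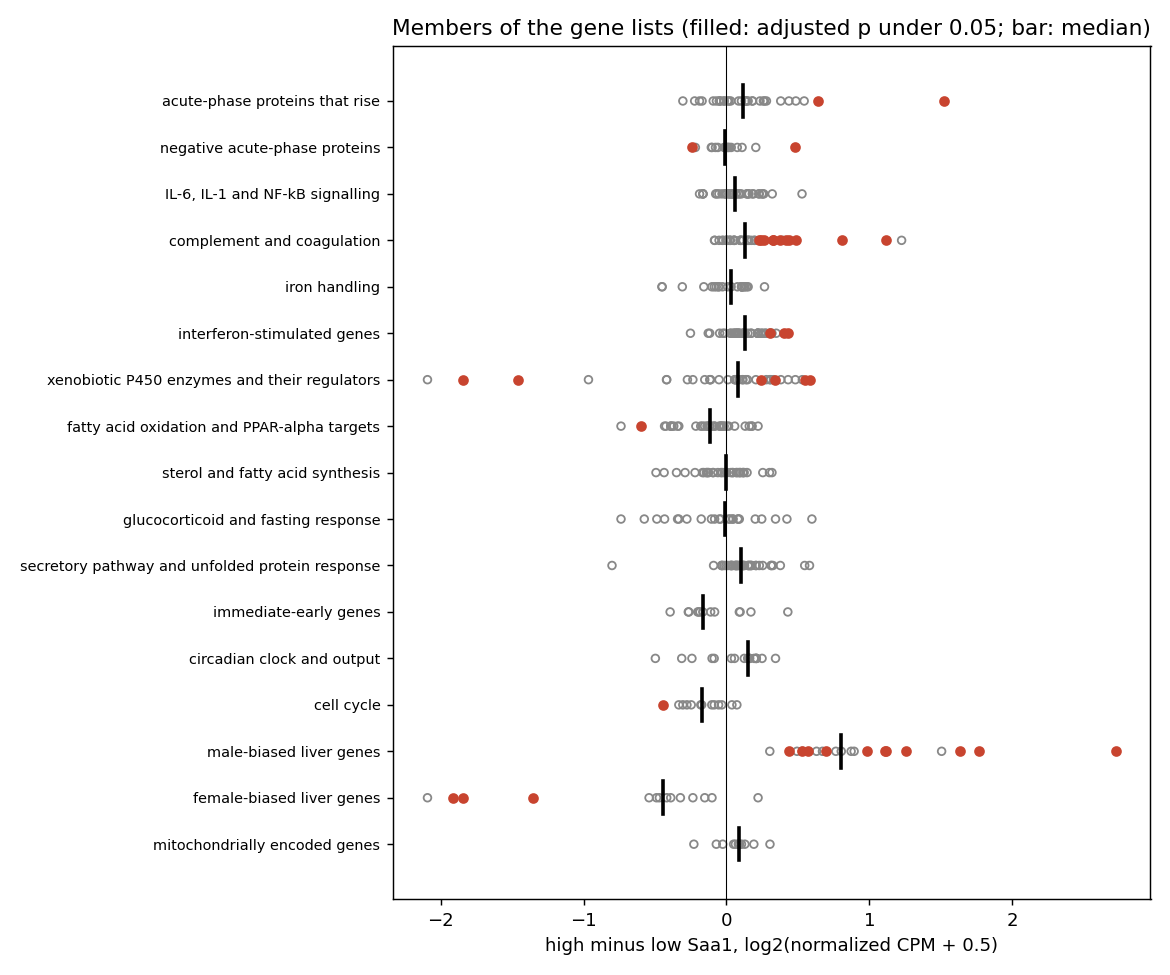
Difference between high-Saa1 and low-Saa1 livers for each member of 17 gene lists, on the log2(normalized CPM + 0.5) scale, with filled points for an adjusted p under 0.05 in limma and bars for medians. Male-biased genes lie to the right of 0 and most female-biased genes to the left.

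Among genes in no list, the smallest adjusted p belonged to Tiam2, an activator of the GTPase Rac1. It was 1.11 to 6.62 (median 2.44) in the high-Saa1 livers and 0.0864 to 2.95 (median 1.02) in the low-Saa1 livers, a difference of 1.20 ± 0.19 (SE, adjusted p = 0.00192), and 1.17 among libraries 1 to 30 and 0.94 among libraries 31 to 59. Selenbp2, a selenium-binding protein, was 57.5 to 419.7 (median 167) against 11.7 to 298 (median 41.99), a difference of 1.73 ± 0.33 (SE, adjusted p = 0.0104), though 59.3% of its 31-base stretches occur in Selenbp1. Nox4, an NADPH oxidase, was 8.15 to 27.03 (median 16.8) against 2.52 to 20.55 (median 7.65), a difference of 1.02 ± 0.21 (SE, adjusted p = 0.0203). The groups overlapped in all 3, with 5, 1 and 4 of 16 high livers above every low liver. Ldhd, a D-lactate dehydrogenase, was 74.4 to 138 (median 118) against 49.6 to 120.6 (median 77.8), a difference of 0.48 ± 0.095 (SE, adjusted p = 0.0122). Wwc1, the Hippo pathway protein KIBRA, was 36.6 to 55.8 (median 48.0) against 20.4 to 46.5 (median 36.2), a difference of 0.46 ± 0.086 (SE, adjusted p = 0.00812).

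Lower in the high-Saa1 livers was Cox6b2, a cytochrome c oxidase subunit, at 0.113 to 1.87 (median 0.866) in the high-Saa1 livers and 1.28 to 3.13 (median 1.94) in the low-Saa1 livers, a difference of -0.81 ± 0.14 (SE, adjusted p = 0.00518), and -0.69 among libraries 1 to 30 and -0.72 among libraries 31 to 59. Slc17a1, a phosphate transporter, was 8.03 to 13.8 (median 10.4) against 11.3 to 17.6 (median 13.4), a difference of -0.36 ± 0.075 (SE, adjusted p = 0.0199). In 13 of 16 high livers Cox6b2 lay below every low liver, and in 10 of 16 Slc17a1 did. Igfbp3, which binds insulin-like growth factors, was 9.17 to 21.1 (median 14.002) against 13.1 to 36.8 (median 20.03), a difference of -0.56 ± 0.12 (SE, adjusted p = 0.0228). Nt5e, which makes adenosine, was 4.30 to 14.6 (median 7.27) against 5.57 to 28.5 (median 12.96), a difference of -0.85 ± 0.18 (SE, adjusted p = 0.0228). Eno1, a glycolytic enzyme, was 234 to 396 (median 301) against 299 to 479.5 (median 376), a difference of -0.34 ± 0.077 (SE, adjusted p = 0.0228). It lies on chromosome 4, which segregated A/J alleles, and 28.5% of its 31-base stretches occur in other genes, most of them in Eno1b, so its count is uncertain. Igfbp3 did not pass without the libraries that share an animal number (adjusted p = 0.0917). Igfbp3, Nt5e and Eno1 overlapped between the groups, with 6, 6 and 8 of 16 high livers below every low liver.

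Some erythroid markers differed between the groups. In these bulk samples fewer cells of a type and less RNA per cell cannot be told apart. Of 9 erythroid markers 6 were tested, 2 were lower and 1 higher, against 0.997% higher and 0.577% lower of all genes, and 5 had an unadjusted p under 0.05, against 16.9%. By edgeR, with plain CPM and by limma without libraries 16, 44 and 47, 4 were lower and 1 higher, and without library 24, and likewise without the libraries that share an animal number, 0 were lower and 1 higher. In these last 2 fits the adjusted p was 0.0631 and 0.103 for Hba-a1 and 0.0701 and 0.102 for Hbb-bs. The globin Hba-a1 was 9.68 to 58.2 (median 32.96) in the high-Saa1 livers and 19.2 to 79.8 (median 51.1) in the low-Saa1 livers, a difference of -0.75 ± 0.19 (SE, adjusted p = 0.0343). The globin Hbb-bs was 19.9 to 74.6 (median 50.2) against 27.2 to 128 (median 75.1), a difference of -0.72 ± 0.18 (SE, adjusted p = 0.0377). Alas2, the erythroid enzyme of heme synthesis, was 56.1 to 84.7 (median 66.7) against 25.3 to 72.5 (median 52.8), a difference of 0.38 ± 0.094 (SE, adjusted p = 0.0315), opposite to the globins. The globin pairs share most of their sequence, 75.4% of 31-base stretches of Hba-a1 with Hba-a2 and 54.4% of Hbb-bs with Hbb-bt. The summed level of the list was 96.4 to 226.9 (median 174.1) in the high-Saa1 and 131 to 306 (median 219.6) in the low-Saa1 livers, with Hbb-bs the most abundant. Ahsp and Slc4a1 were not among the genes of the table. The part of blood cells in the other differences was not tested.

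In the other marker lists 0 of 60 genes passed by limma, a count near the 1.57% of all genes called, and 0 by edgeR. Of the 60, 14 had an unadjusted p under 0.05 in limma, against 16.9% of all genes. With plain CPM 1 stellate cell marker and 1 hepatocyte marker were lower. Median summed levels, over the markers that the table holds, in high-Saa1 against low-Saa1 livers were for Kupffer cells and macrophages 528 against 521 (14 of 14 markers in the table, Cd5l the most abundant), for neutrophils 4.70 against 4.38 (4 of 14 markers in the table, Csf3r the most abundant) and for T and NK cells 3.91 against 3.94 (3 of 13 markers in the table, Il2rb the most abundant). For B and plasma cells they were 10.7 against 11.3 (6 of 9 markers in the table, Ighm the most abundant), for sinusoidal endothelium 341 against 356 (10 of 10 markers in the table, Dnase1l3 the most abundant) and for stellate cells and fibroblasts 228.9 against 246 (12 of 12 markers in the table, Dcn the most abundant). For cholangiocytes they were 32.8 against 30.1 (4 of 8 markers in the table, Spp1 the most abundant), for adipocytes 6.36 against 8.24 (1 of 6 markers in the table, Fabp4 the most abundant) and for exocrine pancreas 5.52 against 5.25 (1 of 8 markers in the table, Cela1 the most abundant). Hepatocyte markers, with Alb the most abundant, summed to 99035 against 110006, 10 of 10 in the table. The defining neutrophil genes S100a8, Ly6g, Mpo and Elane and the T cell genes Cd3d, Cd3e and Cd3g were not among the genes of the table.

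The 18 middle livers, which the contrast had not used, gave no call. Their Saa1 spanned only 31.2 to 54.1 normalized CPM. By limma 0 genes (0.0%) passed for a slope on log2 Saa1 (smallest adjusted p = 0.614), while 581 had an unadjusted p under 0.05, 337 of them falling. Libraries 8 and 10 share an animal number, so these may be fewer mice. Without these libraries, an alternative chosen after seeing the data, 0 genes passed (smallest adjusted p = 0.308), with 598 at an unadjusted p under 0.05. Of 11435 genes tested, 581 and 598 are near the share of 0.05 that this threshold passes when no gene differs. Of the genes higher in the high-Saa1 livers 48 (42.1%) had a slope above 0, against 48.6% of all genes. Of the 66 lower genes 34 had a slope below 0, against 51.4% of all genes. The slope, in log2 units per log2 unit of Saa1, was 0.52 ± 0.34 (SE) for Saa2, 0.17 ± 0.25 for Hc and -0.43 ± 1.18 for Hsd3b5. Median slopes were -0.22 for the male-biased, 0.012 for the complement and coagulation and -0.32 for the interferon list.

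The same 50 livers were also ranked by Orm2 and by Lcn2. Between the 16 highest and 16 lowest in Orm2 0 genes were higher and 0 lower by limma, with 1219 at an unadjusted p under 0.05. Between those ranked by Lcn2 364 were higher and 390 lower. Hsd3b5 differed by 0.086 (adjusted p = 0.968) in the Orm2 ranking and by -1.60 (adjusted p = 0.014) in the Lcn2 ranking, Cyp17a1 by -0.49 (adjusted p = 0.648) and 1.44 (adjusted p = 0.0213), and Hc by 0.17 (adjusted p = 0.568) and -0.15 (adjusted p = 0.442). Against the Saa1 ranking the signs of Hsd3b5, Cyp17a1 and Hc were thus turned in the Lcn2 ranking. They were kept in the Orm2 ranking, where none of these genes passed. Of the 180 genes called in the Saa1 ranking, 120 kept their sign in the Orm2 ranking and 8 in the Lcn2 ranking. In the Lcn2 ranking 41 of the 180 were called in the opposite direction and 0 in the same. The rankings share libraries, so these values stand side by side with no test between them.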

How the data were processed

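Liver RNA was sequenced from 50 stranded libraries, more than the livers counted in the methods. The authors mapped reads with HISAT2 (GRCm38.p5), obtained gene counts with HTSeq, filtered low genes and scaled with edgeR; the trimming tool is Trim Galore in the submitters' processing notes and Trimmomatic in the methods. The deposited signal is the authors' normalized CPM for 12185 genes, 12173 with a GENCODE symbol. Whole reads were recovered for 100% of values within 0.01.

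The 16 highest and 16 lowest libraries were selected on Saa1. Members and lists were chosen with earlier results of these data known. Log2(value + 0.5) of 11435 genes with a mean of at least 1, Saa1 left out, was compared with limma 3.58.1 (R 4.3.3; trend, 2-sided, Benjamini-Hochberg, threshold 0.05); this scale understates differences of low genes. Genes named are the markers, the acute-phase list, up to 4 of each other list and 12 unlisted genes in each direction with the smallest adjusted p, and some genes are not reported here. Alternatives were edgeR 4.0.16 (quasi-likelihood) on whole reads, other pseudocounts, filters, scalings, group sizes, covariates and rankings. Permutation tests used 100000 resamples. Fits were tested on simulated data. Libraries are separate samples by their labels, but 2 animal numbers stand on 2 libraries each.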

Additional observations from a re-analysis of the deposited data

How the results depend on the processing

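Against 0.997% of tested genes higher and 0.577% lower, with 2 acute-phase, 11 complement and coagulation and 11 male-biased genes higher, the values that moved by over 1.5 times were as follows. The last 2 counts, and leaving out libraries 16, 44 and 47, were chosen after seeing the data. Groups of 12 gave 0.0700% higher, 0.0350% lower, 0 acute-phase, 3 complement and 0 male-biased. Groups of 25 gave 0.411% higher, 0.297% lower, 7 complement and 4 male-biased. The library set as covariate gave 0.0175% higher, 0% lower, 0 acute-phase, 1 complement and 0 male-biased. Animal number as covariate gave 0% higher, 0% lower, 0 acute-phase, 0 complement and 0 male-biased. Leaving out libraries that share an animal number gave 0.446% higher, 0.376% lower and 5 male-biased. Leaving out library 24 gave 0.498% higher, 0.271% lower and 7 male-biased. Libraries 1 to 30 alone gave 0.00875% higher, 0% lower, 0 acute-phase, 0 complement and 0 male-biased. Libraries 31 to 59 alone gave 0% higher, 0% lower, 0 acute-phase, 0 complement and 0 male-biased. Ranking by Orm2 gave 0% higher, 0% lower, 0 acute-phase, 0 complement and 0 male-biased. Ranking by Lcn2 gave 3.18% higher, 3.41% lower, 9 acute-phase, 0 complement and 0 male-biased, with 6 complement and 8 male-biased genes lower. Leaving out libraries 16, 44 and 47 gave 1.71% higher and 1.17% lower. A slope on Saa1 over 50 livers gave 0.122% higher, 0.00875% lower, 4 acute-phase, 4 complement and 0 male-biased. Plain CPM gave 2.61% lower.

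Ranking by Lcn2 turned the sign of Saa4 (-0.30), Hp (0.46), Igfals (-0.37), Ahsg (0.10), Hc (-0.15), C9 (-0.43), C6 (-0.92), C8a (-0.29), Hsd3b5 (-1.60), Ugt2b1 (-0.63), Selenbp2 (-1.20), Nox4 (-0.64), Cyp17a1 (1.44), Cyp2a4 (1.49), Irgm1 (-0.045), Iigp1 (-0.20), Irf7 (-0.41), Cyp2j5 (-0.18), Cyp2a22 (0.85), Acot2 (0.29), Alas2 (-0.28), Hba-a1 (0.44), Hbb-bs (0.35), Tiam2 (-0.77), Cox6b2 (0.42), Slc17a1 (0.073), Igfbp3 (0.39), Nt5e (0.72), Cyp1a2 (-0.45), Ldhd (-0.21), Wwc1 (-0.38), Eno1 (0.25) and Mcm2 (0.31). Libraries 1 to 30 alone turned the sign of Orm3 (-0.15) and Lcn2 (-0.19). Leaving out libraries 16, 44 and 47 turned the sign of Lcn2 (-0.074). Groups of 12 turned the sign of Hp (0.021). Animal number as covariate turned the sign of Hp (0.051). Libraries 31 to 59 alone turned the sign of Hp (0.12). Ranking by Orm2 turned the sign of Hp (0.12), Igfals (-0.058), Irgm1 (-0.074), Iigp1 (-0.039), Cyp2j5 (-0.022), Acot2 (0.076), Alas2 (-0.037), Hba-a1 (0.040), Wwc1 (-0.093), Eno1 (0.094) and Mcm2 (0.17). A slope on Saa1 over 50 livers turned the sign of Hp (0.045). The cause was not tested.

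Of the other recomputed gene differences 505 kept their sign and side of the threshold, 273 kept the sign and no longer passed, and 4 newly passed: Saa3 with quantile normalization, Orm1 and Orm2 with the slope over 50 livers and Orm3 ranked by Lcn2. Without libraries 16, 44 and 47 that slope, added after seeing the data, gave 1.07% higher and 0.647% lower. In the middle livers 0 genes passed in each alternative run with limma there. Within a library set 5 livers of 1 group faced 11 of the other, fewer than in the whole contrast. There limma gave 1897 genes at an unadjusted p under 0.05 in libraries 1 to 30 and 593 in libraries 31 to 59. Of 11435 genes tested, 593 is near the share of 0.05 that this threshold passes when no gene differs. Libraries 31 to 59 alone thus showed no clear excess (smallest adjusted p = 0.683 in limma). The difference between the library sets passed for 0 genes (interaction in limma), with 965 at an unadjusted p under 0.05. Plain CPM moved the median difference of all genes to -0.053. The adjusted p-values treat libraries as separate mice. No paired analysis was possible because the groups share no library number and only 1 animal number.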

Other observations

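Position was read from the GENCODE annotation of GRCm38. Chromosome 4, which segregates A/J alleles in this cross, held 17 of the genes higher in the high-Saa1 livers (14.9%) and 4 of the 66 lower (6.06%), against 6.38% of all genes tested with a position. Chromosome 6 held 6 and 2, against 5.03% of all genes. C8a, C8b, Cyp2j5, Cyp4a12b, Mup7, Mup20 and Mup21 are among the higher genes on chromosome 4 and Eno1 among the lower, and on chromosome 6 C1ra and C1s1 among the higher and Mcm2 among the lower. On chromosome 4 are also Orm1, Orm2 and Orm3, which were not called. Saa1, Saa2, Saa3 and Saa4 lie together on chromosome 7, which is C57BL/6J in every mouse according to the methods.

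In the middle livers all 12 mitochondrially encoded genes had a slope on Saa1 below 0, against 51.4% of all genes, with a median of -0.59. Of the 12, 4 had an unadjusted p under 0.05 in limma, against 581 of all 11435 genes, and none passed adjustment. The 12 were measured in the same livers and can move together, so they do not count as 12 separate observations. Between the high and low groups their median difference was 0.085, of the opposite sign.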
